A study of Danio rerio with 2 samples.

Results

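The most abundant transcripts of the adult zebrafish ovary were taken as the genes at 500 FPKM or more in both of 2 ovary libraries, with the 2 values within 2-fold of each other. FPKM counts the fragments mapped to a gene per kilobase of transcript and per unit of library size. Of 22328 genes listed, 137 met this rule, 0.614% of the table. The 137 genes were chosen by their level and ratio in these same libraries, so their levels and ratios are a description and carry no test.

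The study compared ovaries of wild type and sox3-/- adults of the AB strain, to ask what loss of the transcription factor Sox3 does to the ovary. Ovary RNA of 3 fish per genotype was pooled into 1 library, and sequencing was done on poly(A) RNA. The mutant lines of the study, sox3 f7 and sox3 f40, carry frame-shift deletions made with CRISPR/Cas9, and the labels do not say which line gave the knockout library. With 1 library of each genotype no difference has a replicate check. Reads per gene are not given, and the precision of a single value was not estimated. The study does give the reads of each library and the share of them that matched at several positions. The targeted gene itself, sox3 (SOX3 in the table), was at 1.18 FPKM in the wild-type-labelled library and at 2.16 FPKM in the knockout-labelled library. A lower sox3 transcript in mutant ovaries was measured by the study with RT-qPCR, and the order in these libraries is the opposite. The aromatase gene cyp19a1a (CYP19A1 in the table) was at 2.04 FPKM in the wild-type-labelled library and at 1.12 FPKM in the knockout-labelled library. For cyp19a1a the study also measured a lower transcript in mutant ovaries with RT-qPCR, so this order goes with the label. Both genes have low values from 1 library of each genotype, so they do not decide whether the labels are right. That was not tested, and the libraries are called by their labels. In what follows, the value of the wild-type-labelled library comes first. Symbols are written as the annotation gives them, often in capitals after the human gene.

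A growing fish oocyte stores mRNA, protein and organelles that carry the embryo until its own genome is transcribed. Much of what it stores serves cell division, chromatin and protein synthesis in the cleaving embryo, while glycoproteins with zona pellucida domains build the egg envelope around it. Yolk itself comes mainly from vitellogenin, a protein made in the liver and taken up from the blood.

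Markers of the oocyte were present in both libraries, as the tissue label says. Of 10 oocyte markers sought, all 10 were listed and 5 were among the 137 genes (ZAR1, buc, zp3b, h1m and ca15b). The summed level of the oocyte markers was 5934 FPKM and 5630 FPKM, most of it from the 5 genes that the rule chose for a high level. The other 5 ranged from GDF9, at 26.6 FPKM and 25.7 FPKM, to bmp15, at 93.6 FPKM and 87.9 FPKM, both growth factors of the oocyte. Markers of granulosa and theca cells, the somatic cells around the oocyte, reached a sum of 52.1 FPKM and 64.1 FPKM over 10 genes, and none of them was among the 137. Their highest, CYP17A1, a steroid-making enzyme of theca cells, was at 30.7 FPKM and 49.0 FPKM, within the range of these 5 oocyte markers. CYP11A1, the first enzyme of steroid synthesis and not on the marker list, was at 105 FPKM and 153 FPKM. The vitellogenin genes vtg1, vtg3 and vtg5 were all under 1 FPKM in both libraries. Markers of blood summed to 13.1 FPKM and 23.2 FPKM and those of muscle to 9.58 FPKM and 10.6 FPKM. Summed levels in both libraries were under 10 FPKM for leukocyte, liver and testis markers. Not all names sought were found: 2 of 4 for blood, 3 of 4 for muscle and 3 of 5 for leukocytes. For liver 5 of 6 were found and for testis 4 of 5, so these sums leave out some markers. In such bulk RNA a change in the number of cells of a type and a change in RNA per cell cannot be told apart.

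The 137 genes held 28.6% of all summed FPKM in the wild-type-labelled library and 30.1% in the knockout-labelled library. Because FPKM is already divided by transcript length, this share approaches a share of transcript molecules and not of reads or of RNA mass. Their median level was 996 FPKM and 984 FPKM, against a median over the whole table of 2.01 FPKM and 1.94 FPKM. In both libraries 59 of the genes stood at 1000 FPKM or more.

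The upper end of the ovary transcriptome was shared by many genes. The single highest gene held 1.19% and 1.13% of summed FPKM, the 10 highest held 6.68% and 6.34%, and the 100 highest held 27.5% and 27.4%. It took the 476 highest genes of the wild-type-labelled library, and the 512 highest of the knockout-labelled library, to reach 50% of the sum. For 90% it took 5058 and 5114 genes. Of the 100 highest genes, 90 in the wild-type-labelled library and 92 in the knockout-labelled library met the rule.

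**Figure D1:**
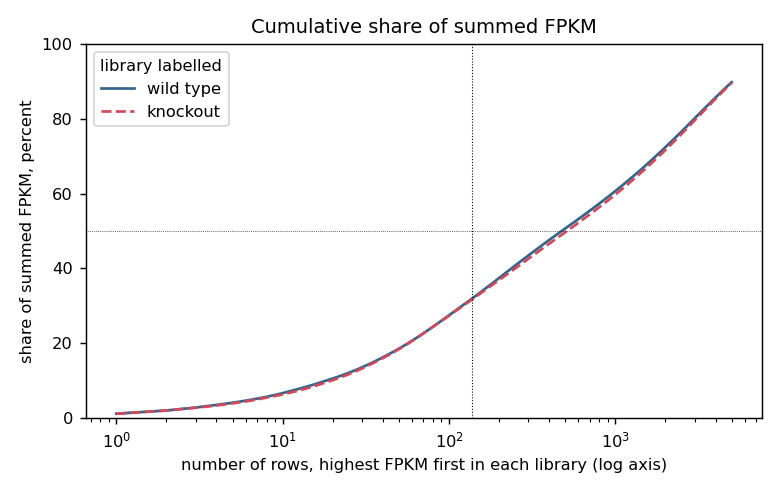
Share of summed FPKM, in percent, held by the highest genes of each library, with the number of genes on a log axis and the vertical line at 137 genes. Both curves run close to each other and pass 50% at 476 genes in the wild-type-labelled library and at 512 in the knockout-labelled library.

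The highest gene of both libraries was zgc:173556, at 6830 FPKM and 6266 FPKM. Next among the 137 genes by mean level was si:ch211-263m18.4, at 4030 FPKM and 4969 FPKM, and si:ch211-226h8.14 followed at 3003 FPKM and 4090 FPKM. These names only record a cDNA collection (zgc), a sequenced genomic clone (si) or an expressed sequence tag (wu), and give no function. Such systematic names belonged to 43 of the 137 genes, which held 42.8% and 44.8% of the summed FPKM of the 137, or 12.3% and 13.5% of all FPKM. Another 11 genes had no symbol, with 7.36% and 6.91% of the 137 genes' FPKM, and 83 genes with a gene symbol held 49.8% and 48.3%.

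Systematic names were more frequent among the 137 genes, at 31.4%, than in the table as a whole, while the share with no symbol was 8.03% against 8.92%. Over all listed genes 12.4% had a systematic name, and they held 19.8% and 19.4% of summed FPKM. Among the 137 genes that come next by mean level below 500 FPKM, 16 had a systematic name, 5 had no symbol and 116 had a gene symbol. The highest gene with no symbol, ENSDARG00000079681, was at 1780 FPKM and 2182 FPKM, and ENSDARG00000079546 and ENSDARG00000078457 were at 1109 FPKM and 1265 FPKM and at 1121 FPKM and 1189 FPKM. Others of this kind within the first 25 genes by mean level were wu:fi09b08, at 1826 FPKM and 1810 FPKM, zgc:165539, at 2524 FPKM and 2854 FPKM, and ENSDARG00000105712, at 1676 FPKM and 1620 FPKM. Levels of zgc:175135 were 1681 FPKM and 2158 FPKM, and those of wu:fi42e03 were 1584 FPKM and 1733 FPKM. The symbol zgc:173545 belongs to 2 genes that both met the rule, ENSDARG00000092026 at 1902 FPKM and 2360 FPKM and ENSDARG00000079534 at 676 FPKM and 1008 FPKM.

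**Figure D2:**
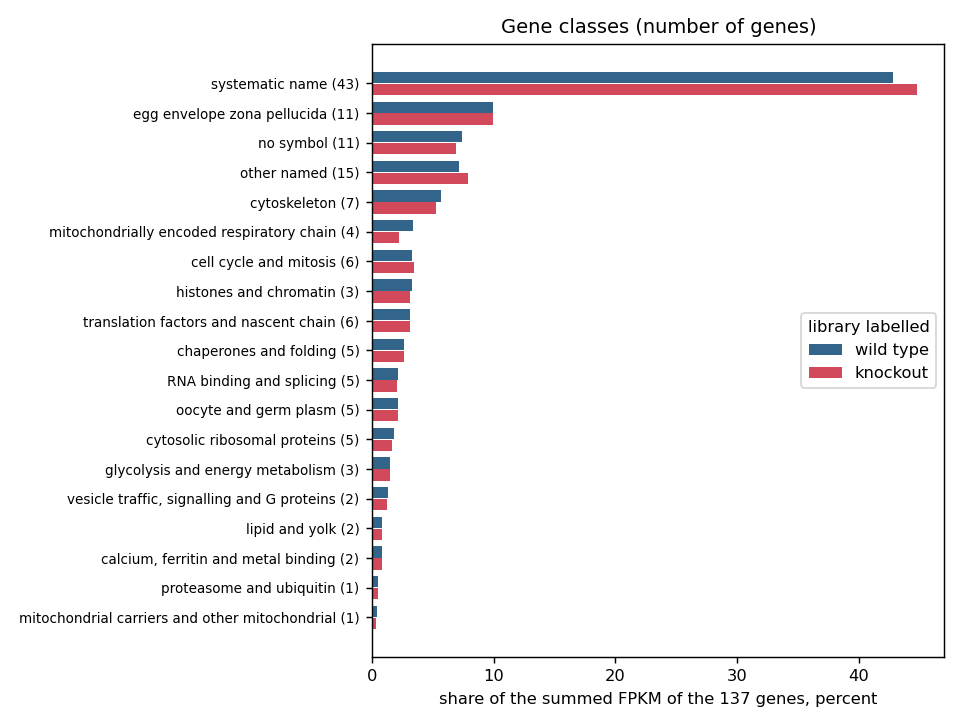
Share of the summed FPKM of the 137 genes, in percent, held by each gene class in each library, with the number of genes in parentheses and bars that start at 0. Genes with a systematic name held 42.8% and 44.8%, and egg envelope genes were the largest class with a known function, at 9.96% and 9.95%. The class labelled vesicle traffic, signalling and G proteins holds only the claudins cldnd and cldng here, and lipid and yolk only the proteases ctss2.1 and ctsla.

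Within the 137 genes the egg envelope came first among the classes of known function. Of 23 zona pellucida genes listed, 11 met the rule, and these 11 held 9.96% and 9.95% of the 137 genes' FPKM. The highest of these 11 were zp2.5, at 3139 FPKM and 3205 FPKM, and zp2.1, at 3335 FPKM and 2924 FPKM. Outside the rule by its ratio was zp2.2, at 4862 FPKM and 2388 FPKM, and outside by both level and ratio was zp2.6, at 107 FPKM and 1786 FPKM. Of the zp3 family, 5 of 9 listed genes met the rule, led by zp3a.1 at 1585 FPKM and 1473 FPKM and zp3e at 1551 FPKM and 1379 FPKM. The zpax genes zpax1 and zpax4 stood at 1075 FPKM and 1227 FPKM and at 929 FPKM and 1040 FPKM. Also in the class were zp3b at 1100 FPKM and 978 FPKM, zp3a.2 at 1031 FPKM and 971 FPKM, zp2l1 at 951 FPKM and 1039 FPKM and zp3f.1 at 798 FPKM and 757 FPKM. Of the egg envelope genes of the rule, only zp2.3 lay over 1.4-fold apart, at 850 FPKM and 1609 FPKM. The whole family of 23 genes, with those outside the rule, summed to 22625 FPKM and 22116 FPKM, or 3.95% and 3.99% of all FPKM. Over all listed genes the cytosolic ribosomal proteins held 4.19% and 3.85%. That was more than the egg envelope in the wild-type-labelled library and less in the knockout-labelled library.

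Genes that mark the oocyte and its germ plasm, the cytoplasm that specifies germ cells, contributed 5 members with 2.13% and 2.15% of the 137 genes' FPKM. ZAR1, a maternal RNA-binding protein needed for oogenesis in zebrafish, was at 928 FPKM and 934 FPKM. Its relative ZAR1L was at 608 FPKM and 734 FPKM. The gene buc, which organises the Balbiani body of the early oocyte, was at 736 FPKM and 761 FPKM. The germ plasm gene ca15b was at 649 FPKM and 615 FPKM, and org was at 572 FPKM and 548 FPKM. All 5 lay within 1.4-fold, with log2 ratios of knockout over wild type from -0.08 to 0.27. Of 78 genes put in the class by symbol 17 had a mean level of 100 FPKM or more. Assignment by symbol can misplace a gene, and the 17 include DDX47, an RNA helicase, at 109 FPKM and 130 FPKM. The highest by mean below the limit were gtsf1, at 385 FPKM and 374 FPKM, and YBX1, at 376 FPKM and 366 FPKM. The gene cth1 reached the limit in one library only, at 511 FPKM and 225 FPKM.

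Chromatin and cell division genes included oocyte forms of histones. The oocyte linker histone h1m stood at 2230 FPKM and 2036 FPKM. The histone variant h2af1al was at 1676 FPKM and 1677 FPKM, and NASP, a histone chaperone, was at 1423 FPKM and 1437 FPKM. The stem-loop binding protein slbp2, of a family that binds histone mRNA, was less equal, at 531 FPKM and 708 FPKM. Among 6 genes of the cell cycle the highest was RRM2 (ENSDARG00000020711), a subunit of the enzyme that makes deoxyribonucleotides, at 1763 FPKM and 2104 FPKM. GMNN, an inhibitor of DNA replication licensing, was at 956 FPKM and 849 FPKM. The M-phase cyclins CCNB1 and CCNB2 were at 866 FPKM and 842 FPKM and at 681 FPKM and 652 FPKM. CCNA1 was at 605 FPKM and 671 FPKM, and the 3 cyclins together summed to 2152 FPKM and 2164 FPKM. BTG4, which in mouse links maternal mRNAs to their deadenylation, was at 559 FPKM and 577 FPKM.

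Cytoskeletal genes came second among the classes of known function, with 7 members and 5.65% and 5.28% of the 137 genes' FPKM. This order holds within the 137 genes only. Over all listed genes the class held 2.68% and 2.65% of FPKM, below RNA binding and splicing at 2.97% and 3.05%. The gene tmsb5, named as a thymosin, an actin-binding protein, was at 2285 FPKM and 2273 FPKM. The RefSeq annotation used here for gene order lists this symbol as a noncoding RNA. The beta-actins actb1 and actb2 were at 1648 FPKM and 1509 FPKM and at 1373 FPKM and 1325 FPKM. Of the tubulins, tubb4b was at 1209 FPKM and 1160 FPKM and tuba4l at 1116 FPKM and 1144 FPKM. The third tubulin, tuba8l4, differed most within the class, at 996 FPKM and 785 FPKM, and CFL1, an actin-severing protein, was at 648 FPKM and 618 FPKM. Close to this class by role is mid1ip1l, needed for the cytoskeleton of the activated zebrafish egg, with 962 FPKM in both libraries (961.91 FPKM and 961.64 FPKM).

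Genes of protein synthesis met the rule in a larger share than the 0.614% of all listed genes. The same held for other classes, such as the cytoskeleton with 7 of 199 genes and protein folding with 5 of 169. Most listed genes lay far below the limit of 500 FPKM, so nothing particular to protein synthesis is read from this comparison. Of 98 translation factor and nascent chain genes listed, 6 met the rule, led by the elongation factor eef1a1l1 at 1185 FPKM and 1202 FPKM, the initiation factor EIF1B at 1082 FPKM and 1065 FPKM, eef2b at 865 FPKM and 860 FPKM and TPT1, a translationally controlled protein, at 827 FPKM and 833 FPKM. Of 88 cytosolic ribosomal protein genes, 5 met the rule, although 76 had a mean level of 100 FPKM or more. The 88 together held 4.19% and 3.85% of all FPKM. Their highest member by mean was RPS12, the least equal of the 5, at 755 FPKM and 547 FPKM. Among the others were RPL19, at 558 FPKM and 549 FPKM, and rpl7a, at 541 FPKM and 517 FPKM. The median over the 88 genes was 262 FPKM and 223 FPKM.

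Protein folding and RNA binding each gave 5 members. HSPA5, the chaperone of the endoplasmic reticulum, was at 1229 FPKM and 1166 FPKM, and its cytosolic relative HSPA8 at 1041 FPKM and 1092 FPKM. HSP90B1 and HSP90AB1, of the Hsp90 family, were at 776 FPKM and 766 FPKM and at 702 FPKM and 809 FPKM. The RNA-binding members were HNRNPAB (ENSDARG00000099865), at 977 FPKM and 832 FPKM, hnrnpa0l, at 817 FPKM and 709 FPKM, the helicase ddx3xb, at 585 FPKM and 659 FPKM, cirbpb, at 597 FPKM in both, and ncl, a nucleolar protein, at 544 FPKM and 631 FPKM. Among the members of both classes log2 ratios stayed between -0.23 and 0.21. Some genes of RNA binding outside the rule, which bounds the ratios of its members only, differed more. A second gene with the symbol HNRNPAB (ENSDARG00000007960) was at 367 FPKM and 535 FPKM, and khdrbs1a was at 340 FPKM and 553 FPKM. Others outside the rule did not, such as SERBP1, at 387 FPKM and 408 FPKM, and DDX5, at 311 FPKM and 347 FPKM.

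Small classes closed the list of known functions. Energy metabolism gave CKB, a creatine kinase, at 1068 FPKM and 1061 FPKM, GAPDH, of glycolysis, at 804 FPKM in both libraries, and NME1, which makes nucleoside triphosphates, at 562 FPKM and 530 FPKM. The claudins cldnd and cldng, membrane proteins of cell junctions, were at 1211 FPKM and 1078 FPKM and at 939 FPKM and 894 FPKM. The lysosomal proteases ctss2.1 and ctsla were at 800 FPKM and 781 FPKM and at 581 FPKM and 570 FPKM. Metal binding was represented by MT1X, a metallothionein, at 698 FPKM and 797 FPKM, and by the ferritin fth1a at 621 FPKM and 558 FPKM. Single genes stood for protein tagging (ubc, a ubiquitin precursor, at 777 FPKM and 760 FPKM) and for the mitochondrial carriers (SLC25A5, an ADP/ATP exchanger, at 594 FPKM and 502 FPKM). A further 15 genes had a gene symbol but fell in no class, and the 4 highest were qdprb.4, at 1357 FPKM and 1249 FPKM, crp2, at 1122 FPKM and 1717 FPKM, retsatl, at 1285 FPKM and 1279 FPKM, and QDPR (ENSDARG00000086859), at 1055 FPKM and 1296 FPKM. The first and last of these belong to the family of dihydropteridine reductase, which recycles the cofactor tetrahydrobiopterin, and crp2 is named as a C-reactive protein.

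The other 11 of these 15 genes included several of lysosomes and membranes. LAMP2, a lysosomal membrane protein, was at 873 FPKM and 1184 FPKM, and the acid phosphatase ACP5 was at 568 FPKM and 616 FPKM. SCARB1, a receptor for lipoproteins, was at 617 FPKM and 610 FPKM. The adhesion molecule epcam was at 636 FPKM and 664 FPKM, and the surface protein thy1 was at 520 FPKM and 539 FPKM. The RNA-binding gene taf15 was at 582 FPKM and 635 FPKM, and GTF3A (ENSDARG00000071583), which in frog oocytes binds stored 5S ribosomal RNA, was at 520 FPKM and 543 FPKM. Of the 15 genes only crp2 lay over 1.4-fold apart, with LAMP2 at a ratio of 1.36 next to it.

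Transcripts encoded by the mitochondrial genome were lower in the knockout-labelled library. All 13 listed genes of this class had a mean level of 100 FPKM or more, and together they held 2.31% and 1.35% of all FPKM. Only 4 of them met the rule, the others being under 500 FPKM in at least 1 library or over 2-fold apart. MT-CO1 was at 1787 FPKM and 1351 FPKM, MT-CO2 at 1653 FPKM and 984 FPKM, MT-CO3 at 1239 FPKM and 734 FPKM, and MT-CYB at 846 FPKM and 561 FPKM. All 4 encode subunits of respiratory complexes and had log2 ratios from -0.75 to -0.40, a range that the rule bounds. Outside the rule by their ratio were mt-atp8, at 2801 FPKM and 1210 FPKM, and MT-ATP6, at 1549 FPKM and 675 FPKM. Their log2 ratios were -1.21 and -1.20. Of 117 nuclear genes for the respiratory chain and ATP synthase none met the rule, 23 had a mean level of 100 FPKM or more, and the class held 1.53% and 1.397% of all FPKM.

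**Figure D3:**
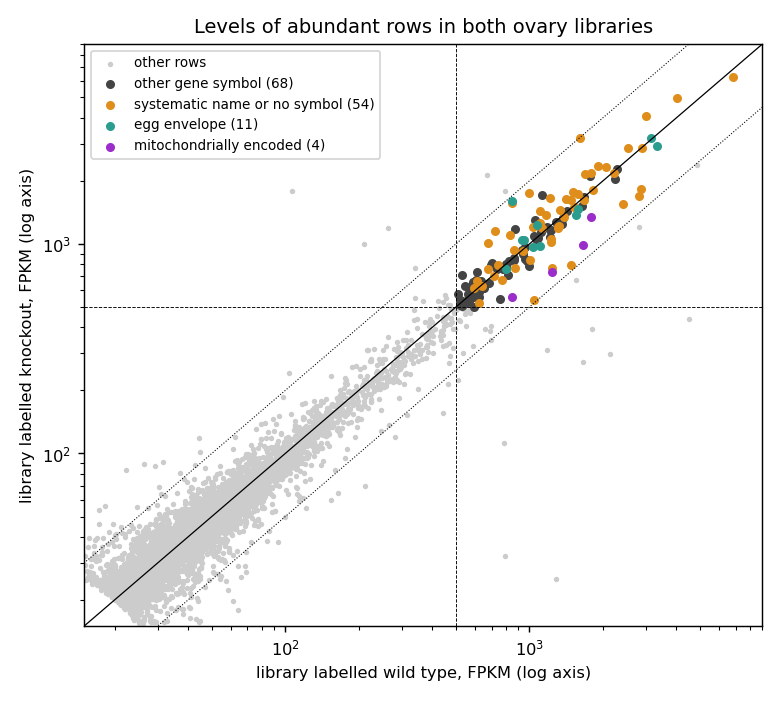
FPKM of each gene in the knockout-labelled library against the wild-type-labelled library, on log axes, with the 137 genes coloured by kind and other genes of a mean of at least 20 FPKM within the axes in grey. Dashed lines mark 500 FPKM and dotted lines 2-fold, and the 4 mitochondrially encoded genes all lie below the diagonal.

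Between the libraries the 137 genes had a median log2 ratio of knockout over wild type of -0.01, with 62 genes higher and 75 lower in the knockout-labelled library. The median over the 11893 genes at 1 FPKM or more in both libraries was -0.02. Of the 137 genes, 7 were over 1.4-fold higher, 5.11% against 12% of the 11893, and 9 were over 1.4-fold lower, 6.57% against 13.7%. Within 1.1-fold were 74 of the 137, 54% against 30.5%. The rule itself bounds each ratio at 2-fold and most of the 11893 genes are at lower levels, so nothing is read from these differences.

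Without the limit on the ratio, a smaller share of genes was within 1.4-fold in the top band of mean level than in the next band. Of the 164 genes with a mean of 500 FPKM or more, 78.7% were within 1.4-fold, while of the 664 genes from 100 to under 500 FPKM 91.9% were. The median absolute log2 ratio was 0.17 in the first band and 0.15 in the second. It was 0.48 between 1 and 10 FPKM. By name, 11 of 95 genes with a gene symbol in the top band were over 1.4-fold apart, with a median absolute log2 ratio of 0.12. In the band from 100 to under 500 FPKM, 44 of 598 genes with a gene symbol were, with a median of 0.14. Of 57 genes with a systematic name in the top band 21 were over 1.4-fold apart, with a median of 0.28. Of 12 genes with no symbol in the top band 3 were. In the band from 100 to under 500 FPKM, 8 of 48 genes with a systematic name were, with a median of 0.17. Of all genes at 1 FPKM or more in both libraries, 2484 of 10352 with a gene symbol were over 1.4-fold apart. So were 357 of 963 with a systematic name and 219 of 578 with no symbol.

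Among the 137 genes the rule fixed the range of the ratios, so their counts by name are a description only. Of the 83 genes with a gene symbol 53 were within 1.1-fold and 5 over 1.4-fold, namely zp2.3, crp2, MT-CO2, MT-CO3 and MT-CYB. Of the 43 with a systematic name 16 were within 1.1-fold and 9 over 1.4-fold. Of all genes at 1 FPKM or more in both libraries, 3275 of 10352 with a gene symbol were within 1.1-fold and 2484 over 1.4-fold. With a systematic name 229 of 963 were within 1.1-fold and 357 over 1.4-fold, so the names differ in this over the whole table too. The 5 highest ratios belonged to si:ch211-154a22.8, at 1612 FPKM and 3197 FPKM, zp2.3, zgc:173544, at 846 FPKM and 1571 FPKM, zgc:171977, at 998 FPKM and 1759 FPKM, and si:dkeyp-98a7.8, at 722 FPKM and 1151 FPKM. The 5 lowest belonged to ENSDARG00000096017, at 1046 FPKM and 540 FPKM, ENSDARG00000088932, at 1474 FPKM and 796 FPKM, MT-CO3, MT-CO2 and si:dkey-241l7.5, at 2799 FPKM and 1689 FPKM. At the other end were genes of nearly identical level, such as kpna7, an importin that carries proteins into the nucleus, at 613.51 FPKM and 613.82 FPKM.

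**Figure D4:**
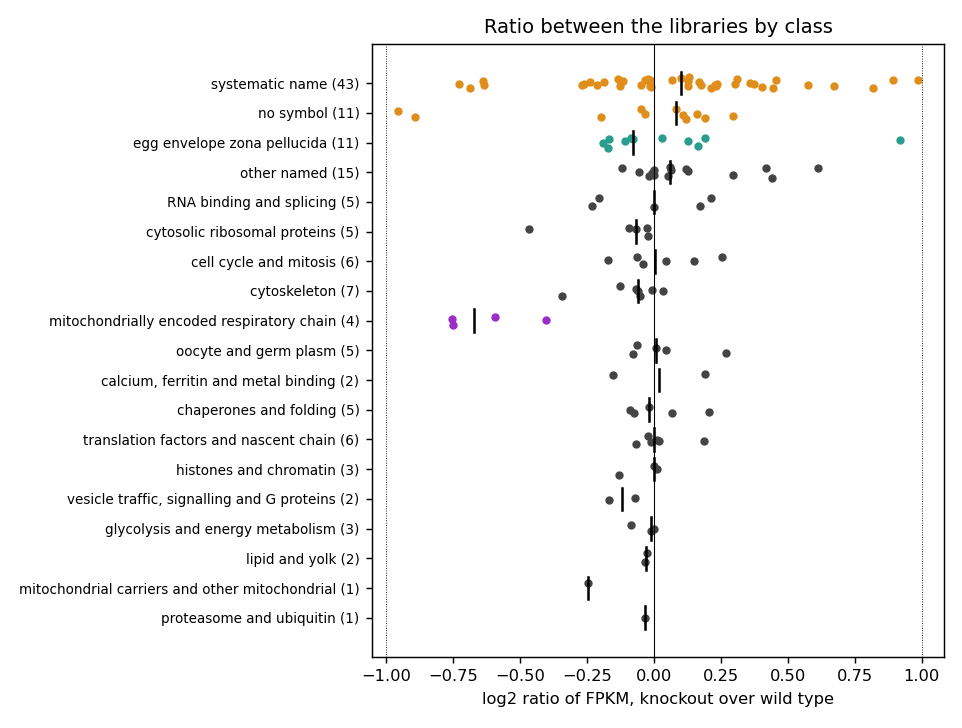
Log2 ratio of FPKM, knockout over wild type, for each of the 137 genes by class, with the number of genes in parentheses, a black bar at each class median and dotted lines at the 2-fold limits of the rule. Genes with a systematic name or no symbol spread from -0.95 to 0.99, and all 4 mitochondrially encoded genes lie between -0.75 and -0.40. The class labelled vesicle traffic, signalling and G proteins holds only claudins here, and lipid and yolk only lysosomal proteases.

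Many of the systematically named genes lie beside each other on the chromosomes. In the order of protein-coding genes of a later assembly, GRCz12tu, 105 of the 137 genes could be placed, and 32 of them (30.5%) stood within 5 genes of another one, in 10 runs. Of these, 6 runs held 3 genes or more, 24 genes in all. Of the 137 genes next by mean level below 500 FPKM 102 were placed, 10 of these (9.80%) stood in runs, and no run held 3. Where neighbours are near-identical copies, reads can be divided among them in more than one way, so single values in these runs are given as uncertain, and how similar the genes are was not measured.

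The longest run had 7 genes within a span of 8, and all 7 had systematic names. In the wild-type-labelled library they ranged from 998 FPKM (zgc:171977) to 2411 FPKM (zgc:152652), and in the knockout-labelled library from 1022 FPKM (zgc:171750) to 1759 FPKM (zgc:171977). Single genes differed in both directions, with zgc:152652 at 2411 FPKM and 1554 FPKM, si:ch211-146l10.7 at 1209 FPKM and 1660 FPKM, and zgc:173856 at 1519 FPKM and 1505 FPKM. Summed over the run the levels were 9775 FPKM and 10123 FPKM, a log2 ratio of 0.05 where single genes ranged from -0.63 to 0.82.

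The si:dkey-241l7 genes formed a run of 5, of which 3 met the rule. Their values were 1513 FPKM and 1779 FPKM for si:dkey-241l7.6, 2799 FPKM and 1689 FPKM for si:dkey-241l7.5, and 2856 FPKM and 1834 FPKM for si:dkey-241l7.2. The 3 together were at 7168 FPKM and 5302 FPKM. This sum was lower in the knockout-labelled library, although si:dkey-241l7.6 alone was higher there. Also higher there were the genes between si:dkey-241l7.5 and si:dkey-241l7.2. These were si:dkey-241l7.4, at 264 FPKM and 1192 FPKM, and si:dkey-241l7.3, at the smallest listed value of 0.01 FPKM and at 281 FPKM. All 5 summed to 7432 FPKM and 6776 FPKM, a log2 ratio of -0.13.

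In some other runs the genes differed in one direction or were nearly equal. In the run of si:ch1073-263o8.2, si:dkey-229d11.5 and si:ch211-263m18.4 all 3 genes were higher in the knockout-labelled library, with log2 ratios from 0.17 to 0.30 and sums of 7503 FPKM and 8925 FPKM. The first of them was at 2060 FPKM and 2318 FPKM. The 4 si:dkeyp-46h3 genes were each lower there, with log2 ratios from -0.24 to -0.03 and sums of 3526 FPKM and 3211 FPKM. The neighbours wu:fi09b08 and zgc:173837 were nearly equal in both libraries, the second at 2219 FPKM and 2187 FPKM. In the egg envelope, zp2.1, zp2.3 and zp2.5 formed a run with sums of 7324 FPKM and 7739 FPKM. These genes differed in both directions, with log2 ratios from -0.19 to 0.92. Between zp2.3 and zp2.1 lay si:zfos-1505d6.3, at 796 FPKM and 1790 FPKM, and zp2.6, at 107 FPKM and 1786 FPKM, both outside the rule. With both of them the span summed to 8227 FPKM and 11315 FPKM, a log2 ratio of 0.46. The 5 genes zp2.1, zp2.2, zp2.3, zp2.5 and zp2.6, of which zp2.2 flanks the run, summed to 12293 FPKM and 11913 FPKM, a log2 ratio of -0.05. This last sum goes by name and leaves out si:zfos-1505d6.3, which was higher in the knockout-labelled library, so no direction is read from it.

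**Figure D5:**
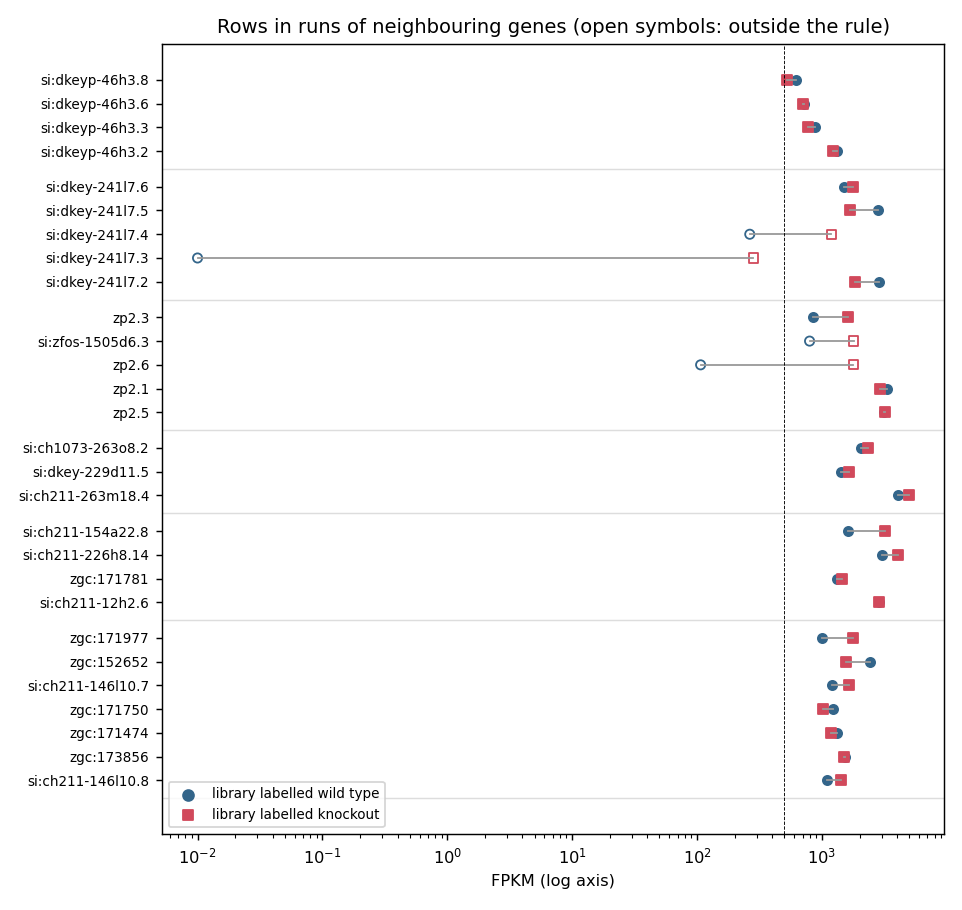
FPKM, on a log axis, of the genes in the 6 runs that hold 3 or more of the 137 genes, in chromosomal order, with circles for the wild-type-labelled library, squares for the knockout-labelled library and open symbols for genes outside the rule. Within the 7 genes of the lowest panel single genes differ in both directions while the sums are 9775 FPKM and 10123 FPKM.

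The sums of a further run also differed. A run of 4 genes, si:ch211-154a22.8, si:ch211-226h8.14, zgc:171781 and si:ch211-12h2.6, summed to 8830 FPKM and 11599 FPKM, a log2 ratio of 0.39, with si:ch211-12h2.6 at 2886 FPKM and 2860 FPKM. Genes named after 4 clones, si:ch211-154a22, si:ch211-226h8, si:ch211-12h2 and si:dkeyp-98a7, numbered 15 in the table, and 5 of them met the rule. The 15 together were at 20180 FPKM and 15035 FPKM, a log2 ratio of -0.42 and thus lower in the knockout-labelled library, opposite to the sum of the 4 genes of the run. The largest part of it was si:ch211-226h8.8, outside the rule at 4491 FPKM and 440 FPKM. Of the 15 genes 7 were over 2-fold lower and 2 over 2-fold higher in the knockout-labelled library. The 5 that met the rule could not pass 2-fold, and the rule kept any gene over 2-fold apart out of the 4 genes of the run. No share past 2-fold over all listed genes was counted, so nothing is read from these counts or from the opposite sums.

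At the limit of level, the genes nearest inside were SLC25A5, the chitinase gene chia.4, at 528 FPKM and 508 FPKM, and the elongation factor EEF1B2, at 509 FPKM and 580 FPKM. Nearest outside were zgc:55461, at 570 FPKM and 490 FPKM, IPO5, at 536 FPKM and 490 FPKM, and RPL5, at 503 FPKM and 489 FPKM. At the limit of the ratio, si:ch211-154a22.8 had a ratio of 1.98, ENSDARG00000096017 one of 0.516 and zp2.3 one of 1.89. Nearest outside were zp2.2, at 4862 FPKM and 2388 FPKM with a ratio of 0.491, si:zfos-1505d6.3, with a ratio of 2.25, and MT-ATP6, at 1549 FPKM and 675 FPKM with a ratio of 0.436. In all, 5 genes at 500 FPKM or more in both libraries lay over 2-fold apart, and 40 genes reached 500 FPKM in one library only.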

How the data were processed

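The authors mapped reads and calculated FPKM per gene, and deposited 1 table with an FPKM value for each gene and library. The submitters' processing notes name HISAT, Bowtie2, RSEM and the build GRCz10. Tool versions were not given in the sources used here. With 2 libraries, 1 per genotype, no test was made. The 137 genes and all lists were chosen with earlier results of these data known. Symbols matched 20336 of 22328 IDs. Each gene was put in the first class whose pattern or names its symbol met. Genes named are the 25 of highest mean FPKM, the 4 highest of each class, the 5 highest and 5 lowest ratios and the 3 nearest each limit, with a few named after their values were seen, among them mid1ip1l, slbp2, kpna7, CYP11A1, gtsf1, YBX1, cth1, LAMP2 and other genes outside the classes and neighbours outside the rule. A gene covered by this rule is not reported here. Ratios had no pseudocount. Gene order came from RefSeq GRCz12tu, a later assembly, and served only to find neighbours. Only the scaling between libraries, with a 2-fold call after it, was tested on simulated data. Python 3.11.15, numpy 2.4.6, pandas 2.3.3 and matplotlib 3.10.9 were used. Alternatives were other level and ratio limits, scaling, pseudocounts, and leaving out mitochondrial genes.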

Additional observations from a re-analysis of the deposited data

How the results depend on the processing

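Of 62 values under alternative settings 51 stayed within 1.5-fold of the reported value (within 0.1 for a median log2 ratio) and 11 did not. Many of the 62 could hardly move, such as those with pseudocounts of 0.1 or 1 FPKM or scaling factors of 0.988 and 0.989. Medians over the background genes are counted too, so the tally is no measure of robustness. A limit of 300 FPKM gave 234 genes in place of 137, with 15 over 1.4-fold lower in the knockout-labelled library. A limit of 1000 FPKM gave 59 genes with 18.2% and 19.4% of summed FPKM, 2 of them over 1.4-fold higher and 3 lower. With ratios limited to 1.4-fold, 0 genes can pass that fold in either direction, and 121 of the 137 met that limit. Among genes with a gene symbol, an alternative added after the data were seen, 2 were over 1.4-fold higher and 3 lower. Scaling the knockout-labelled library by the median of ratios or by a trimmed mean shifted log2 ratios by under 0.1 and left 136 genes, with median log2 ratios of 0.00476 and 0.00295. No paired analysis was possible because each genotype has 1 library, and no replicate could be left out. Protein length, coding-length weighting and promoter motifs were planned and not run, since no such tables were used here.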
